A study of Mus musculus with 4 samples.

Results

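The genes described here are 10 epidermal differentiation genes of the mouse: the suprabasal keratins Krt1, Krt10, Krt2 and Krt77, the cornified envelope genes Lor, Flg and Flg2, the secreted keratinocyte proteins Sbsn and Krtdap, and the lectin Lgals7. They were taken by symbol from the 32285 genes of the count matrices, and all 10 were found there once. Nuclear RNA was read from back skin of mice of the inbred C57BL/6 strain, wild type and aged 8 weeks. Wounded replicates 1 and 2 came from a mouse each whose excisional wound, cut through the full thickness of the skin, was collected after 1 day. Unwounded replicates 1 and 2 were intact back skin of another mouse each. Each library is a mixture of all skin cells, read as single nuclei with a barcode per nucleus and a molecular identifier (UMI) per captured RNA molecule.

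Epidermis renews itself from a basal layer that divides and carries the keratins Krt5 and Krt14. A cell that leaves this layer replaces them with Krt1 and Krt10, which pair into the filaments of the suprabasal layers, and later builds a cornified envelope, a protein shell cross-linked under the membrane, of which loricrin (Lor) is the main component. Filaggrin (Flg) bundles keratin filaments in the granular layer, and these layers together make the skin's barrier.

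The members lie in 4 groups on the chromosomes (GRCm38). Krt2 (chromosome 15, 101810689 to 101818169), Krt1 (101845426 to 101850794) and Krt77 (101858731 to 101869705) are neighbours in the type II keratin cluster, all on the minus strand. Krt10, a type I keratin, is on chromosome 11 (99385254 to 99389364, minus strand). Lor (92080271 to 92083142, minus strand), Flg2 (93197278 to 93221391, plus strand) and Flg (93273523 to 93293686, plus strand) are in the epidermal differentiation complex of chromosome 3. Lgals7 (28863853 to 28866284), Sbsn (30751471 to 30756134) and Krtdap (30787896 to 30791097) are on the plus strand of chromosome 7.

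Promoter sequence was available for 9 of the 10 members (RefSeq, GRCm38.p6, 250 bases before to 50 after the start site), all but Krt1. A pair of short motifs were searched on both strands. TATAA, the core of the TATA box, was in 6 of the 9, against 25.5% of 27025 mouse promoters of that length. TGANTCA, the core of the site bound by AP-1 factors, was in 5 of the 9, against 7.93% of those promoters. The 150 bases before the start site are shown for 4 members whose transcripts are compared below, with motif matches in capitals. Krt10 (chr11:99389365-99389514, minus strand) has a TATAA match only, and Lor (chr3:92083143-92083292, minus strand) and Flg2 (chr3:93197123-93197272, plus strand) have both. Lgals7 (chr7:28864236-28864385, plus strand), the member whose level overlapped between wounded and unwounded skin, has neither, and its RefSeq start site lies inside the gene's span given above.
Krt10: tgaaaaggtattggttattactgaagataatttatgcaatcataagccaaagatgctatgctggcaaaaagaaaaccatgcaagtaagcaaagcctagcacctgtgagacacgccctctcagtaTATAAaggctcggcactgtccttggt
Lor: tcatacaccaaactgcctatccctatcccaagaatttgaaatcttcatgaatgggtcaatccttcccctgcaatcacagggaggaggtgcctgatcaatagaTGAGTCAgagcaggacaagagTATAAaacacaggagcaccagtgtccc
Flg2: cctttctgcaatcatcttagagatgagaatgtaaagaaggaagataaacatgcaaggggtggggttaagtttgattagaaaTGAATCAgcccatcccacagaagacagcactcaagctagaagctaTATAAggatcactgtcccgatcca
Lgals7: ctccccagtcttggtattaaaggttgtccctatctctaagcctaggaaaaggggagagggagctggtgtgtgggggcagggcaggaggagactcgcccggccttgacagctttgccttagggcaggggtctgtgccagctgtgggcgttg

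The TATAA match began 26 bases before the start site in Krt10, 27 in Lor and in Krt2, 24 in Flg2, 30 in Krtdap and 53 in Flg. The TGANTCA match began 48 bases before it in Lor, 69 in Flg2, 81 in Krtdap and 103 in Flg, and Sbsn had 2 such matches, 119 and 6 bases before it. Krt77 had neither motif. A match describes these letters only and is not evidence of binding.

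The libraries differed in depth and quality between the groups. After filtering, wounded replicates 1 and 2 held 2297 and 3706 nuclei with 1189262 and 1350822 UMIs, and unwounded replicates 1 and 2 held 6575 and 9001 nuclei with 8275090 and 6475744 UMIs. A count of 0 allows up to 2.52 and 2.22 counts scaled to the library total (CPM) in the wounded libraries and up to 0.363 and 0.463 CPM in the unwounded ones, a floor of 3 counts. Malat1, an abundant RNA retained in nuclei, made up 0.120% and 0.294% of wounded UMIs, against 9.39% and 8.26% of unwounded UMIs. The 1466 olfactory and vomeronasal receptor genes, genes of the nose's sensory neurons, summed to 7044 and 6525 CPM in wounded and to 94.5 and 132 CPM in unwounded libraries. Pairs of libraries shared between 3 and 27 barcodes, at most 0.411% of the smaller one. The part of these differences in the results below was not tested, apart from the alternatives that are named.

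Most of the 10 genes, and their sum, had lower levels in wounded skin. Together they had 59 and 175 counts in the wounded libraries (49.6 and 130 CPM), against 1512 and 2874 counts in the unwounded libraries (183 and 444 CPM). A count from any of them was found in 2.44% and 4.40% of wounded nuclei and in 15.3% and 21.5% of unwounded nuclei. Of them 7 fell past the threshold in wounded skin, where 37.3% of all genes tested were called lower. Lgals7 and Flg did not pass it, Flg with the higher level in wounded skin, and Krt2 had too few counts to be tested. Markers of other cell types moved with these falls. The 8 fibroblast markers summed to 615 and 750 CPM in wounded and to 11296 and 11605 CPM in unwounded libraries, and the 8 skeletal muscle markers to 546 and 588 CPM in wounded and to 6032 and 5054 CPM in unwounded ones, with none of them at 0. The 8 suprabasal markers used below, which hold no member, summed to 728 and 698 CPM in wounded and to 216 and 294 CPM in unwounded libraries. The 8 basal markers, of which Krt15 was at 0 in both wounded libraries, summed to 741 and 908 CPM in wounded and to 339 and 434 CPM in unwounded ones. These marker sums were not set against gene length, as the members are below. Skint5, a suprabasal marker gene of 521.6 kb, gave 405 and 382 CPM of the sum in wounded replicates 1 and 2. The receptor genes there gave 0.550 and 0.510 CPM per kilobase of gene. Higher marker sums in wounded skin are therefore not shown to be keratinocyte RNA. By all marker lists, 1856 of 2297 and 3188 of 3706 wounded nuclei had no class, against 592 of 6575 and 1204 of 9001 unwounded nuclei. Their part in the falls was not tested. In sums over a library, fewer cells of a type and less RNA per cell cannot be told apart.

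Krt10 fell furthest by its fitted change. It had 0.841 and 2.96 CPM in the wounded libraries, from 1 and 4 counts, against 27.6 and 48.5 CPM in the unwounded ones, from 228 and 314 counts. Both wounded libraries lay below both unwounded ones, at 1.90 ± 1.50 against 38.0 ± 14.8 CPM (SD, n = 2 mice per group). The log2 fold change of wounded over unwounded was -5.03 ± 0.55 (SE), with adjusted p = 1.03e-05 in edgeR's quasi-likelihood test.

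Krt1, the partner of Krt10, had 2.52 and 3.70 CPM in wounded and 14.7 and 23.9 CPM in unwounded libraries. The groups did not overlap, and the log2 fold change was -3.39 ± 0.49 (adjusted p = 7.02e-05). Krt77, another type II keratin of the same cluster, had 5.05 and 11.1 CPM in wounded and 40.6 and 88.3 CPM in unwounded libraries. It fell with a log2 fold change of -3.75 ± 0.50 (adjusted p = 4.21e-05), again with no overlap. Krt2, a type II keratin of late suprabasal cells, had 2 counts in each wounded library (1.68 and 1.48 CPM) and 0 counts in each unwounded library. All 4 values were at or under the floor, so no fold is given.

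Lor had 2.52 and 1.48 CPM in wounded libraries, from 3 and 2 counts, against 7.13 and 55.0 CPM in unwounded libraries, from 59 and 356 counts. It fell with a log2 fold change of -4.74 ± 1.27 (adjusted p = 0.00493). The unwounded replicates were far apart in Lor, at 31.1 ± 33.8 CPM, so its SE was the widest of the 9 tested members. Without unwounded replicate 2, Lor had too few counts to be tested.

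Of the filaggrin genes, Flg2 was called lower in wounded skin and Flg was not called. They were not tested against each other, and their wounded levels are set against gene length further on. Flg2, a filaggrin relative of the granular layer, had 9.25 and 8.88 CPM in wounded and 21.5 and 38.8 CPM in unwounded libraries, a log2 fold change of -2.52 ± 0.40 (adjusted p = 0.000159). Flg had 4.20 and 8.14 CPM in wounded libraries, from 5 and 11 counts, against 1.09 and 2.47 CPM in unwounded libraries, from 9 and 16 counts. Its wounded values were above its unwounded ones without overlap, but the log2 fold change of 1.08 ± 0.59 did not pass the threshold (adjusted p = 0.113). Without unwounded replicate 2, which leaves 1 library in that group, it was 1.72.

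The small secreted proteins fell as well. Sbsn, whose product suprabasin is named for its suprabasal expression, had 5.05 and 15.5 CPM in wounded and 31.9 and 78.0 CPM in unwounded libraries (log2 fold change -3.17 ± 0.55, adjusted p = 0.000283). Krtdap, a secreted protein of differentiating keratinocytes, had 5.05 and 3.70 CPM in wounded and 7.85 and 18.5 CPM in unwounded libraries (log2 fold change -2.37 ± 0.60, adjusted p = 0.00362). Neither gene's groups overlapped.

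Lgals7, which encodes galectin-7, a carbohydrate-binding protein of stratified epithelia, was the only member whose groups overlapped. The share of all genes without overlap was not computed, so the lack of overlap in other members is only described. For Krt2 it rests on 2 counts in each wounded library and 0 in each unwounded one. Lgals7 had 13.5 and 72.5 CPM in wounded libraries, from 16 and 98 counts, and 30.3 and 90.3 CPM in unwounded libraries, from 251 and 585 counts. Wounded replicate 2 stood above unwounded replicate 1. The log2 fold change was -1.25 ± 0.61, with adjusted p = 0.0774. It was -2.75 without wounded replicate 2 and -1.89 without unwounded replicate 1, fits that hold 1 library in a group. With every replicate kept, Lgals7 passed as lower with no low-count filter (-1.34), at least 400 genes per nucleus (-1.88) and no doublet removal (-1.31). It also passed with the replicate number as a block (-1.37, adjusted p = 4.85e-11), though the labels do not pair these numbers. Its call thus depended on the setting.

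**Figure D1:**
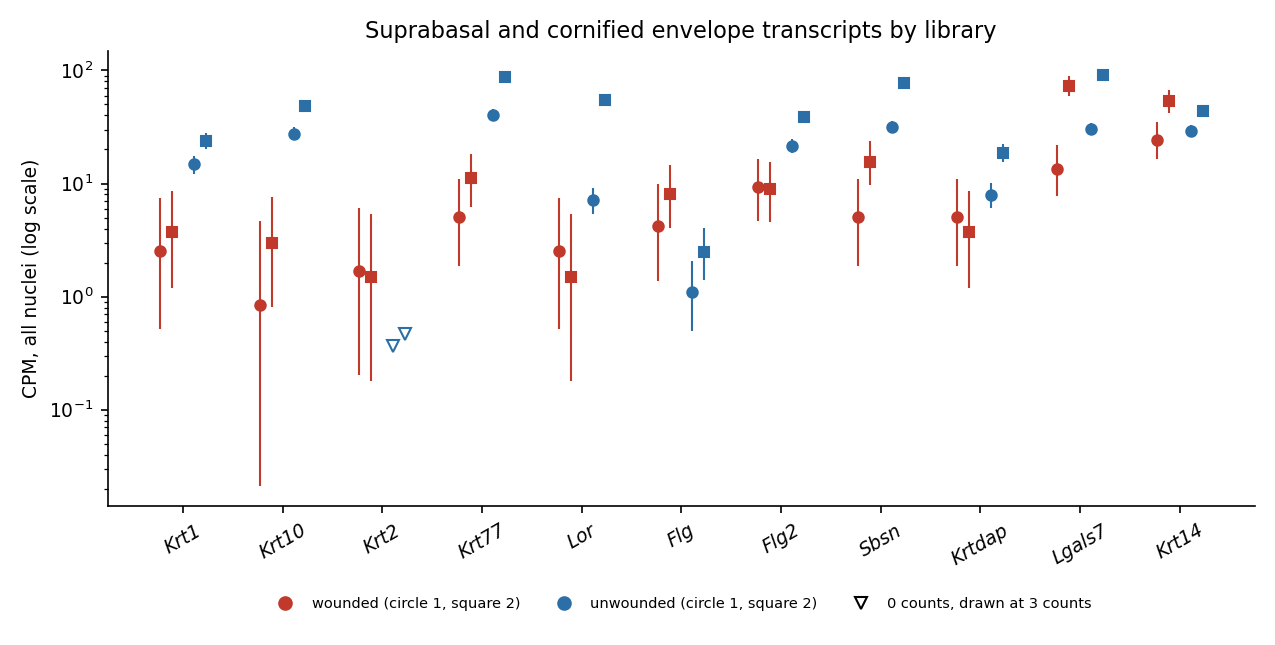
Normalised counts (CPM) (log axis) of the 10 genes and of Krt14 in each library, wounded in red and unwounded in blue, with bars for the 95% counting interval. Open triangles mark 0 counts, drawn at 3 counts; Krt10 sits at 0.841 and 2.96 CPM in wounded and at 27.6 and 48.5 CPM in unwounded skin, while the Lgals7 groups overlap.

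Many genes changed between these libraries, and the members have to be read against that. Of 20930 genes tested, 84.2% were called in either direction and 46.9% as higher in wounded skin, and the median log2 fold change over all of them was 0.39. Among the members 7 of the 9 tested were lower and 0 were higher, with a median of -3.17. The other list members of late differentiation, described further on, had a median of -0.79. Scaling by RLE in place of TMM factors moved the median of all genes to 0.63 and left the same number of members lower. An exact permutation test of 2 against 2 mice cannot go below p = 0.333 for any single gene and was therefore not used.

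The members left in wounded skin were also set against gene length. The receptor genes gave 0.550 and 0.510 CPM per kilobase of gene in wounded replicates 1 and 2, against 0.00738 and 0.0103 in unwounded replicates 1 and 2, and that density times a gene's length is called its length-expected level. In wounded skin Krt10 stood at 0.372 and 1.41 times its length-expected level, Krt1 at 0.854 and 1.35 times and Krt2 at 0.408 and 0.388 times. Lor stood at 1.60 and 1.01 times, Flg at 0.379 and 0.792 times and Flg2 at 0.697 and 0.723 times. For these 6 genes the wounded counts were therefore no higher than the receptor genes' density gives, within counting error. In unwounded skin the tested members stood far above it, from 7.31 times for Flg in replicate 1 to 3593 times for Lgals7 in replicate 2.

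Of the members 4 reached above the length-expected level in at least 1 wounded library. Lgals7 stood at 10.1 times (95% counting interval 5.75 to 16.3) in replicate 1 and at 58.5 times (47.5 to 71.3) in replicate 2. Sbsn stood at 1.97 (0.721 to 4.28) and 6.54 times (4.05 to 10.0). Krt77 stood at 0.835 (0.307 to 1.82) and 1.99 times (1.11 to 3.27), and Krtdap at 2.86 (1.05 to 6.23) and 2.27 times (0.736 to 5.29). Krt14, the basal keratin, stood at 10.1 and 23.8 times. When the length-expected counts were subtracted from every library before the fit, Krt10, Krt1, Krt77 and Flg2 were still called lower, and 3 calls were lost. Lor was then at a log2 fold change of -5.46 ± 2.20 (adjusted p = 0.0630), Sbsn at -1.97 ± 0.75 (adjusted p = 0.0530) and Krtdap at -1.46 ± 0.78 (adjusted p = 0.136), so the fitted fall of Lor was no smaller but its SE was wider, while those of Sbsn and Krtdap were smaller. Flg was not tested after subtraction.

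**Figure D2:**
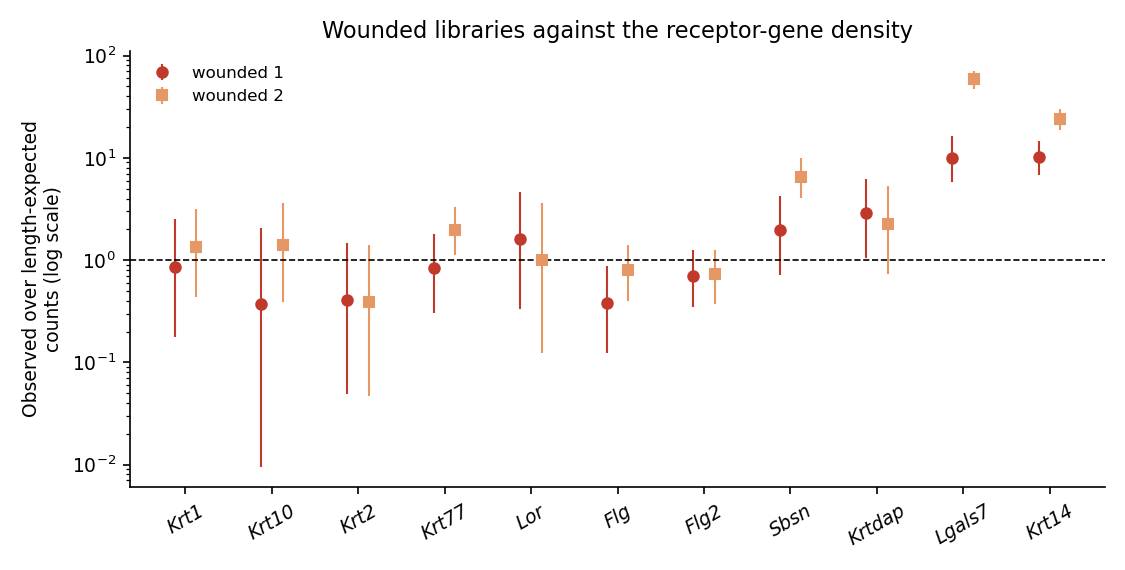
Observed over length-expected counts (log axis) of the 10 genes and of Krt14 in wounded replicates 1 and 2, with 95% counting intervals; the dashed line marks equality. Lgals7 and Krt14 lie above the line in both libraries, and Krt10, Krt1, Krt2, Lor and Flg2 have intervals that include it.

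Ratios within a library do not depend on its total. Krt14 was taken as the denominator after its values had been seen. It had 24.4 and 53.3 CPM in wounded and 29.1 and 43.9 CPM in unwounded libraries, which overlap, with a log2 fold change of -0.68 ± 0.33 (adjusted p = 0.0789). Its basal partner Krt5 did fall, with 4.20 and 10.4 CPM in wounded and 30.6 and 36.9 CPM in unwounded libraries (log2 fold change -2.96 ± 0.35, adjusted p = 1.56e-05).

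Per 100 Krt14 counts, Krt10 had 3.45 (0.0844 to 20.8) and 5.56 (1.47 to 14.9) counts in wounded replicates 1 and 2, against 94.6 (78.6 to 114) and 111 (93.9 to 130) in unwounded replicates 1 and 2. Krt1 had 10.3 and 6.94 in wounded and 50.6 and 54.6 in unwounded libraries, and Krt77 had 20.7 and 20.8 in wounded and 139 and 201 in unwounded libraries. The 3 keratins were thus lower against Krt14 in both wounded libraries, with counting intervals that did not overlap those of either unwounded library. This holds for Krt14 as denominator only. Krt5 had 5 and 14 counts in wounded and 253 and 239 in unwounded libraries. Beside it, Krt1 had 3 and 5 counts against 122 and 155, and Krt77 had 6 and 15 against 336 and 572. Ratios to Krt5 were not taken, so a fall against basal keratins in general is not shown. Lgals7 had 55.2 (28.0 to 105) and 136 (99.4 to 187) per 100 Krt14 counts in wounded libraries and 104 (86.9 to 125) and 206 (178 to 238) in unwounded libraries, which overlap. Flg had 17.2 (5.21 to 45.0) and 15.3 (7.30 to 29.0) in wounded and 3.73 (1.69 to 7.21) and 5.63 (3.18 to 9.31) in unwounded libraries.

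To see which nuclei carried the transcripts, nuclei were classed by 13 lists of 8 marker genes, none of which holds a member. A nucleus took the class with the most markers detected, if at least 2 and more than for any other class. In unwounded replicates 1 and 2 this gave 24 and 25 suprabasal-marker nuclei and 83 and 86 basal-marker nuclei, against 5281 and 7026 fibroblast-marker nuclei.

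In intact skin, 3 of the 4 members with enough counts were higher in suprabasal- than in basal-marker nuclei, as were 16.7% of all genes tested. Krt77 had 1235 and 1576 CPM in suprabasal-marker nuclei of unwounded replicates 1 and 2, against 42.7 and 148 CPM in basal-marker nuclei. The log2 fold change, with the mouse as a block, was 3.90 ± 0.40 (adjusted p = 2.18e-11 in edgeR's quasi-likelihood test). Krt10 had 643 and 936 CPM in suprabasal- and 59.8 and 74.1 CPM in basal-marker nuclei (log2 fold change 3.36 ± 0.47, adjusted p = 1.24e-07). Both suprabasal values lay above both basal values for each of these keratins.

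Sbsn had 437 and 591 CPM in suprabasal- and 25.6 and 133 CPM in basal-marker nuclei, a log2 fold change of 2.77 ± 0.50 (adjusted p = 1.78e-05), a call that DESeq2 did not make (adjusted p = 0.103). Taken within a single mouse, with no test, its log2 fold change was 1.83 in unwounded replicate 2 and 3.17 in unwounded replicate 1. Lgals7 had 232 and 394 CPM in suprabasal- and 76.9 and 267 CPM in basal-marker nuclei. Its groups overlapped, and the log2 fold change of 0.87 ± 0.49 did not pass (adjusted p = 0.191). Of 1206 genes tested 31.3% were called in either direction and 14.6% as lower in suprabasal-marker nuclei, with a median log2 fold change of -0.11, against 3.07 for the 4 members.

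The members below the count filter differed in where they were seen. Flg2 had 180 and 542 CPM in suprabasal- and 8.54 and 29.6 CPM in basal-marker nuclei, a ratio of summed counts of 18.7 (5.46 to 99.2) from 18 and 3 counts. Krt1 had 154 and 49.2 CPM in suprabasal- and 68.3 and 118 CPM in basal-marker nuclei, with a ratio of 1.36 (0.475 to 3.51), so it was not separated between these classes at this depth. Krtdap had 154 and 49.2 CPM against 8.54 and 29.6 CPM. Lor had 0 and 49.2 CPM in suprabasal- and 8.54 and 59.2 CPM in basal-marker nuclei, from 1 and 5 counts in all. Flg had 1 count in each class, and Krt2 none.

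**Figure D3:**
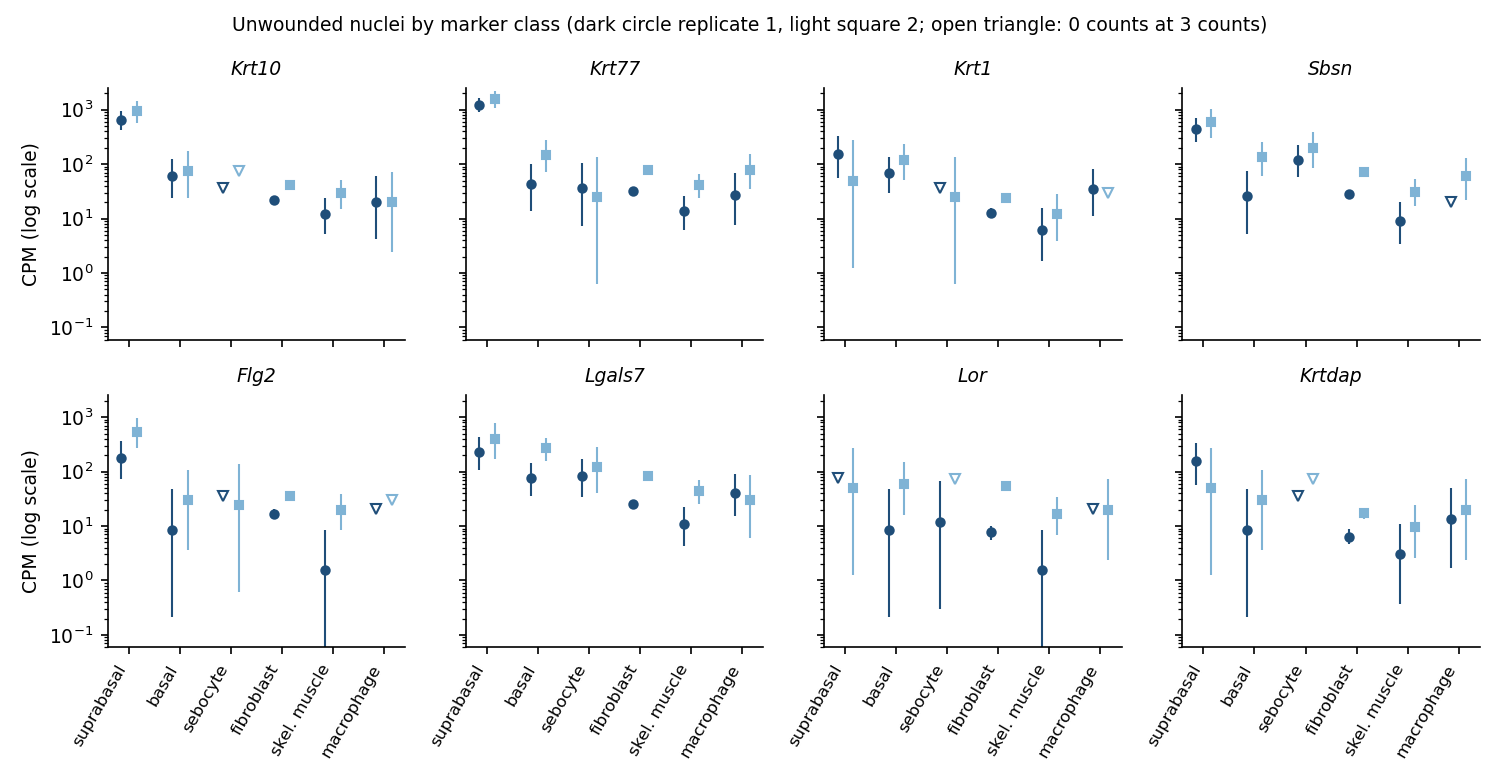
Normalised counts (CPM) (log axis) of 8 members in 6 marker classes of unwounded nuclei, replicate 1 dark and replicate 2 light, with 95% counting intervals and open triangles for 0 counts. Krt10, Krt77, Sbsn and Flg2 are highest in suprabasal-marker nuclei, while Lor in replicate 2 is 49.2 CPM there, 59.2 CPM in basal- and 55.4 CPM in fibroblast-marker nuclei.

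Most counts of these genes lay outside keratinocyte-marker nuclei. The 109 and 113 keratinocyte-marker nuclei of unwounded replicates 1 and 2 held 14.0% and 9.55% of all Krt10 counts, 15.8% and 8.04% of Krt77 counts and 1.69% and 1.40% of Lor counts. A Krt10 count was found in 66.7% and 32% of suprabasal-marker nuclei, 4.82% and 5.81% of basal-marker nuclei and 2.27% and 2.76% of fibroblast-marker nuclei. Median depths were 1164.5 and 509 UMIs in suprabasal-marker and 897 and 468.5 UMIs in fibroblast-marker nuclei. With each nucleus thinned to 300 UMIs the shares were 25% and 12% of suprabasal-, 0% and 2.33% of basal- and 1.00% and 1.67% of fibroblast-marker nuclei.

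The Krt10 share in suprabasal-marker nuclei thus stayed above that in fibroblast-marker nuclei, while the basal share at equal depth was near it. The Lor share, given without thinning, was 0% and 4% of suprabasal-marker nuclei, against 0.928% and 2.60% of fibroblast-marker nuclei. At 24 and 25 suprabasal-marker nuclei this does not separate the classes. Some of the fibroblast-marker nuclei with Lor held many copies, as described further on. Fibroblast-marker nuclei had 22.0 and 41.9 CPM of Krt10 and 32.4 and 78.3 CPM of Krt77. Skeletal muscle-marker nuclei had 12.2 and 29.0 CPM of Krt10 and 13.8 and 41.0 CPM of Krt77. For each gene and class, replicate 2 was the higher of the mice. Sebocyte-marker nuclei had 0 Krt10 counts in both mice but 120 and 197 CPM of Sbsn, from 10 and 8 counts.

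The wound comparison was repeated within keratinocyte-marker nuclei, basal and suprabasal together. There were 132 and 174 of them in wounded replicates 1 and 2 (5.75% and 4.70% of nuclei) and 109 and 113 in unwounded replicates 1 and 2 (1.66% and 1.26%). In these nuclei Krt77 had 0 and 1 counts in wounded libraries, against 53 and 46 counts in unwounded libraries. The log2 fold change was -5.20 ± 0.80 (adjusted p = 0.000173), and the ratio of summed CPM was 0.0155 (0.000390 to 0.0886). Krt10 had 0 and 1 counts in wounded and 32 and 30 counts in unwounded libraries, a log2 fold change of -4.53 ± 0.91 (adjusted p = 0.00126) and a ratio of 0.0248 (0.000618 to 0.143). Both keratins were almost without counts in the wounded nuclei of this gate.

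Sbsn had 1 and 2 counts in wounded and 21 and 22 counts in unwounded keratinocyte-marker nuclei, a log2 fold change of -2.51 ± 0.72 (adjusted p = 0.0109) and a ratio of 0.107 (0.0213 to 0.335). The call was lost without wounded replicate 1 and without unwounded replicate 2, fits that hold 1 library in a group. Lgals7 had 33.0 and 215 CPM in wounded and 114 and 302 CPM in unwounded keratinocyte-marker nuclei, from 3, 15, 18 and 27 counts. Its groups overlapped, with a log2 fold change of -0.09 ± 0.70 (adjusted p = 0.918). It was -1.02 without unwounded replicate 1 and 0.88 without wounded replicate 1, fits that hold 1 library in a group. Whether Lgals7 and the keratins differ in their response was not tested.

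Of 2543 genes tested in keratinocyte-marker nuclei, 59.7% were called, 37.0% as higher and 22.7% as lower in wounded skin, with a median log2 fold change of 0.10. Of the members 4 were tested, 3 were lower and 0 were higher. Among those not tested, Krt1 had 0 and 1 counts in wounded and 14 and 9 counts in unwounded nuclei, a ratio of 0.0669 (0.00162 to 0.412). Flg2 had 0 and 2 counts in wounded and 8 and 13 counts in unwounded nuclei, a ratio of 0.147 (0.0167 to 0.599).

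The gate itself rested on different markers in the groups. Skint5, a gene of 521.6 kb, was detected in 43.9% and 36.2% of the wounded nuclei in the gate, against 24.8% and 23.9% of the unwounded ones. Krt5 was detected in 2 of 132 and 8 of 174 wounded nuclei and in 36 of 109 and 26 of 113 unwounded nuclei, and Krt15, another basal keratin, had 0 counts in both whole wounded libraries. Malat1 was detected in 46 and 86 of the wounded nuclei and in every unwounded nucleus of the gate, and the receptor genes summed to 6904 and 6128 CPM in the wounded nuclei, against 101 and 168 CPM in unwounded ones. In a gate of nuclei with a count of Krt5 or Krt14, added after seeing the data, Krt77 had a log2 fold change of -1.21 (adjusted p = 0.367) and Sbsn of -0.32 (adjusted p = 0.820), and Krt10 had too few counts to be tested. In suprabasal-marker nuclei alone all 3 calls held, at -7.94 for Krt77, -4.24 for Krt10 and -3.63 for Sbsn.

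**Figure D4:**
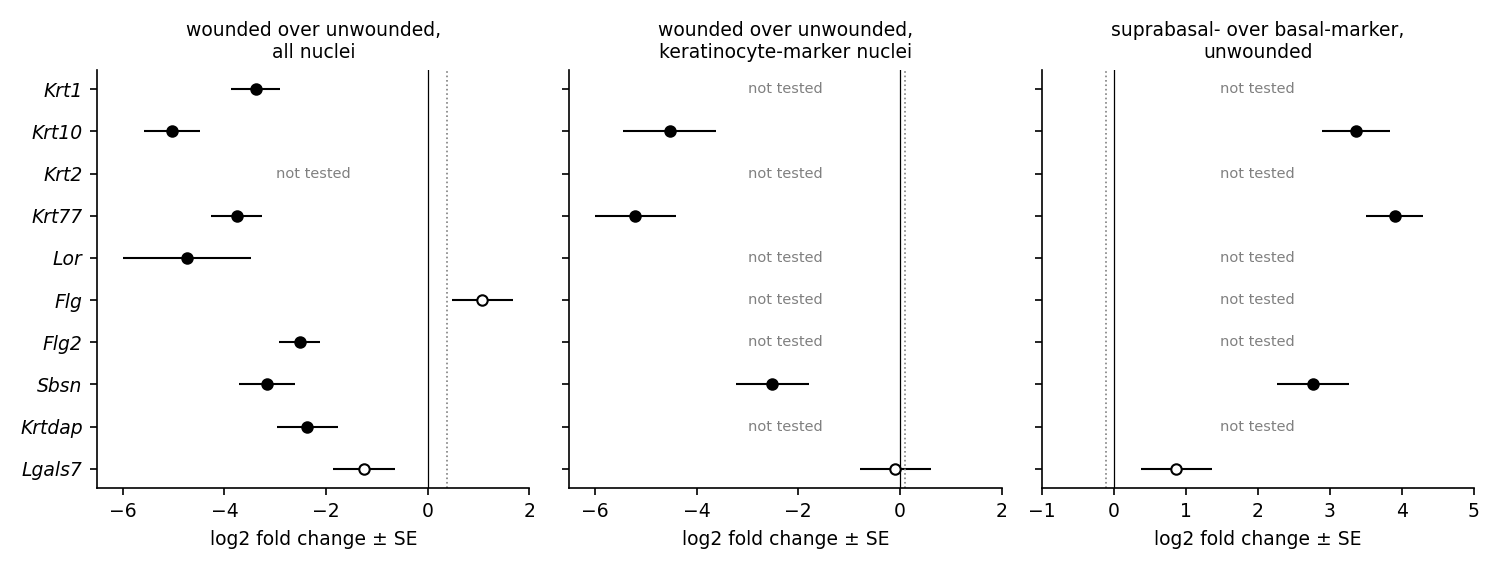
Fitted log2 fold changes with SE of the 10 genes in 3 comparisons, filled where the adjusted p passed the threshold of 0.05; dotted lines mark the median of all genes tested. In all nuclei 7 members lie below -2, Krt77, Krt10 and Sbsn lie on opposite sides of 0 in the wound and the suprabasal comparisons, and Lgals7 is open in all 3.

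A few unwounded nuclei carried many copies of a member. At least 5 counts of Krt77 were found in 5 nuclei of each unwounded mouse, of Flg2 in 6 and 5 nuclei of unwounded replicates 1 and 2, and of Lor in 0 and 8 nuclei. No nucleus was in more than 1 of these sets. In the wounded libraries no nucleus had more than 2 counts of any member. These nuclei were picked by their counts after the data were seen, so what follows describes them and carries no test.

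Each set also held counts of other members. Krt77-high nuclei had 414 (166 to 853) and 964 CPM (354 to 2099) of Krt10 in unwounded replicates 1 and 2, against 27.6 and 48.5 CPM over all nuclei of those libraries. Flg2-high nuclei had 109 CPM (2.77 to 609) of Krt10 in replicate 1 and 0 counts (up to 583 CPM) in replicate 2. They had 1313 (678 to 2293) and 1737 CPM (867 to 3109) of Sbsn, against 31.9 and 78.0 CPM over all nuclei, and 328 (67.7 to 959) and 1264 CPM (546 to 2490) of Lor, against 7.13 and 55.0 CPM. Sbsn and Lor were thus higher beside Flg2 in both mice.

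Lor was concentrated in a few nuclei of 1 mouse. The 8 Lor-high nuclei of unwounded replicate 2 held 98 of that library's 356 Lor counts (27.5%), with up to 21 in a nucleus, whereas no nucleus of unwounded replicate 1 had more than 1. They had 0 counts of Krt77 and of Krt1 among 4013 UMIs, which allows up to 919 CPM of each, against 88.3 and 23.9 CPM over the library. They had 3 counts of Flg and 2 of Krt10, which puts Krt10 at 498 CPM (60.4 to 1800), and a median depth of 522.5 UMIs. Flg stood at 748 CPM (154 to 2185) in them, against 2.47 CPM over the library. By markers, 4 of the 8 Lor-high nuclei were classed as fibroblast and 4 were unassigned, and of the 11 Flg2-high nuclei 5 and 6 were. Of the 10 Krt77-high nuclei, 4 were keratinocyte-marker nuclei, 4 fibroblast-marker nuclei and 2 unassigned. The 29 nuclei together held 1 count of Krt5 and 0 of Krt14.

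**Figure D5:**
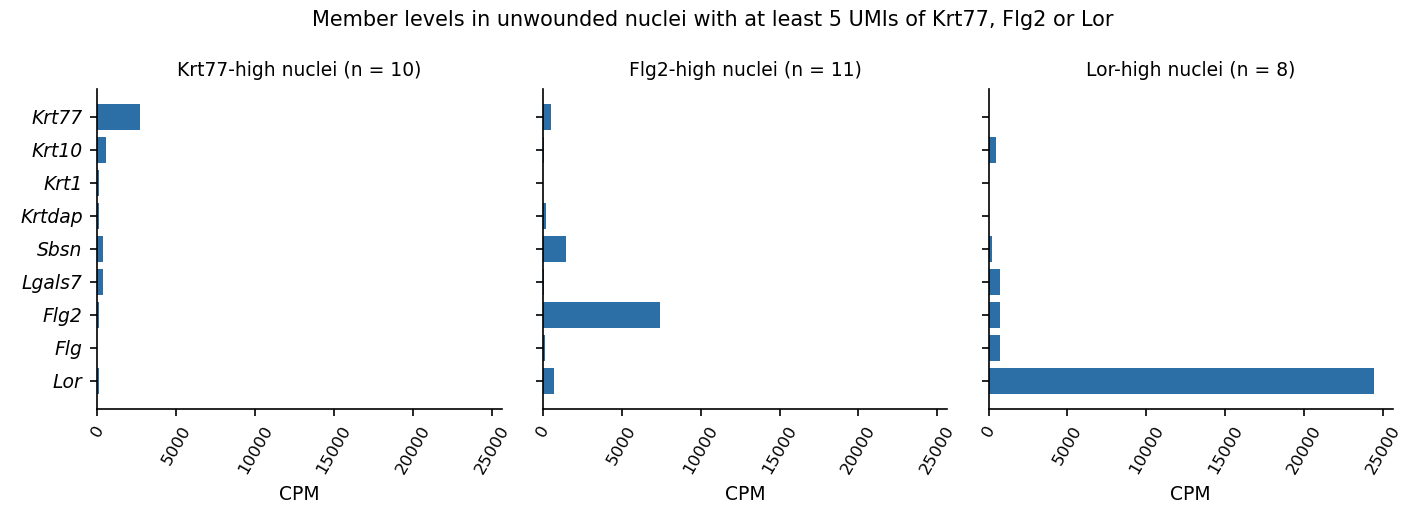
Normalised counts (CPM) of 9 members, summed over the unwounded nuclei with at least 5 counts of Krt77 (10 nuclei), Flg2 (11 nuclei) or Lor (8 nuclei). Krt10 is at 562 CPM in Krt77-high nuclei and at 498 CPM, from 2 counts, in Lor-high nuclei, Sbsn and Lor are at 1486 and 711 CPM in Flg2-high nuclei, and Lor-high nuclei hold 24421 CPM of Lor.

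Of 40 other genes of late epidermal differentiation, 15 were tested over all nuclei, where 3 were higher and 5 lower in wounded skin, against 46.9% higher and 37.3% lower among all genes. Lce1m, a late cornified envelope protein, had 0 and 2 counts in wounded and 50 and 192 counts in unwounded libraries, which is 0 and 1.48 against 6.04 and 29.6 CPM (log2 fold change -5.21, adjusted p = 0.00312). Ppl, which encodes periplakin of the envelope, had 36.2 and 40.7 CPM in wounded and 41.2 and 46.0 CPM in unwounded libraries (log2 fold change -0.97, adjusted p = 0.000845). Its ratio of summed CPM was 0.891 (0.713 to 1.10), and the TMM factors put the fitted change below that ratio. Wounded levels were 0 and 2.32 times the length-expected one for Lce1m and 1.42 and 1.73 times for Ppl. The cross-linking enzymes Tgm3 and Tgm1 were the higher ones of smallest p. Tgm3 had 21.9 and 22.2 CPM in wounded and 0.363 and 0.309 CPM in unwounded libraries (log2 fold change 5.14, adjusted p = 3.00e-06), and its wounded level was 1.04 and 1.15 times the length-expected one. Tgm1 had 10.1 and 8.14 CPM in wounded and 1.45 and 1.54 CPM in unwounded libraries (log2 fold change 1.80, adjusted p = 0.00316), at 1.32 and 1.15 times the length-expected level.

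Of 23 regulators of epidermal differentiation, all were tested over all nuclei, where 6 were higher and 11 lower in wounded skin, with a median log2 fold change of -0.41 against 0.39 for all genes, of which 46.9% were higher and 37.3% lower. Klf4, a transcription factor needed for barrier formation, had 8.41 and 7.40 CPM in wounded and 43.3 and 56.4 CPM in unwounded libraries (log2 fold change -3.44, adjusted p = 1.71e-06). Maf, a transcription factor of late differentiation, had 29.4 and 40.0 CPM in wounded and 205 and 186 CPM in unwounded libraries (log2 fold change -3.27, adjusted p = 7.78e-08). Rxra, a nuclear receptor, fell with a log2 fold change of -2.37 (adjusted p = 1.64e-06). Wounded levels were 2.87 and 2.73 times the length-expected one for Klf4, 2.15 and 3.16 times for Maf and 0.406 and 0.504 times for Rxra. Prdm1, a repressor found in terminally differentiating keratinocytes, had 77.4 and 60.7 CPM in wounded and 8.46 and 8.34 CPM in unwounded libraries (log2 fold change 2.25, adjusted p = 5.01e-06), at 1.54 and 1.30 times the length-expected level. These genes are also expressed by other skin cells.

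Within keratinocyte-marker nuclei 4 genes of late differentiation were tested, with 1 higher and 2 lower. Spink5, a protease inhibitor of the granular layer, had 33.0 and 28.6 CPM in wounded and 177 and 156 CPM in unwounded nuclei (log2 fold change -1.76, adjusted p = 0.0124). Ppl had 44.0 and 115 CPM in wounded and 304 and 291 CPM in unwounded nuclei (log2 fold change -1.32, adjusted p = 0.0267). Tgm3 was called higher but is a marker of the gate, and Dmkn, a neighbour of Sbsn and Krtdap, did not pass (log2 fold change -0.54, adjusted p = 0.350). Of the regulators 9 were tested, with 2 higher and 6 lower, against 37.0% higher and 22.7% lower among all genes. Gata3, a factor of epidermal and follicular differentiation, had 33.0 and 57.3 CPM in wounded and 418 and 380 CPM in unwounded nuclei (log2 fold change -2.52, adjusted p = 0.000559). Pou2f3, a POU factor of suprabasal epidermis, fell with -1.46 (adjusted p = 0.00524) and Jag2, a Notch ligand, with -2.99 (adjusted p = 0.00390). Trp63, the p63 gene of basal cells, was higher at 1.38 (adjusted p = 0.00379) but is a marker of the gate.

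Between suprabasal- and basal-marker nuclei of intact skin all 3 tested genes of late differentiation were higher in the suprabasal class, against 16.7% of all genes. Spink5 had 540 and 640 CPM in suprabasal- and 59.8 and 14.8 CPM in basal-marker nuclei (log2 fold change 3.57, adjusted p = 2.32e-07). Dmkn had 437 and 591 CPM against 85.4 and 44.4 CPM (log2 fold change 2.66, adjusted p = 2.09e-05), and Ppl 617 and 591 CPM against 205 and 193 CPM (log2 fold change 1.47, adjusted p = 0.00857). Of the regulators 7 were tested, with 3 higher and 2 lower, against 16.7% and 14.6% of all genes. Trp63 is among the lower ones but is a marker that defines the basal class, so its call is no result. Grhl1, a grainyhead factor of the suprabasal epidermis, had 849 and 246 CPM in suprabasal- and 68.3 and 88.9 CPM in basal-marker nuclei (log2 fold change 2.89, adjusted p = 2.39e-06). Notch3 had 463 and 394 CPM against 51.2 and 133 CPM (log2 fold change 2.28, adjusted p = 0.000249). Jag2 had 0 counts in suprabasal-marker nuclei of both mice and 25 and 16 counts in basal-marker nuclei (adjusted p = 0.000132), which is at least 4.38-fold lower, taking 3 counts over both mice as the floor.

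The genes most like the members in their distribution were sought across 16 sums, 8 marker classes in each unwounded mouse, over 15548 genes. The measure was Pearson's r of log2(CPM + 1) with the mean of the members' log2(CPM + 1). The 5 highest were Fam3b (r = 0.895), Skint8 (0.883), Skint2 (0.881), Mt4 (0.877) and Tmprss4 (0.875). Fam3b and Mt4 each had 51.5 and 49.2 CPM in suprabasal-marker sums of 38867 and 20307 UMIs. Their r thus rests on very few counts. Tmprss4, a membrane serine protease, had 386 and 148 CPM in suprabasal-marker nuclei and at most 51.2 CPM in any other class. Skint8 had 77.2 and 197 CPM and Skint2 25.7 and 197 CPM in the suprabasal-marker sums, each with at most 17.1 CPM elsewhere. These values also rest on few counts, and Skint5, another Skint gene, is a suprabasal marker. The members' own r ran from 0.600 for Lor to 0.853 for Flg2, with no value for Krt2. Each member is part of the mean it is set against, so its r cannot be compared with those of other genes. Points of a mouse share a library and its depth, and classes of few nuclei are sparse, so these values only describe.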

How the data were processed

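Single-nucleus libraries were made with the 10x Genomics 3' v3.1 kit, per the labels' protocols. The authors deposited matrices of unnormalised UMI counts, from Cell Ranger 5.0.1 and the GRCm38 genome, per the submitters' processing notes. It is not given in the sources used here whether reads in introns were included. The matrices held 4635 and 18026 barcodes for wounded and 6965 and 9840 for unwounded replicates 1 and 2.

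Barcodes under 200 genes or over 5% mitochondrial counts were left out. Scrublet (scanpy 1.11.5) marked 11, 0, 0 and 0 doublets for wounded 1 and 2 and unwounded 1 and 2, under 0.5% of nuclei, so those with the top scores were taken out instead, 0.8% for every 1000 barcodes in a library: 88, 624, 388 and 769 in that order. Counts were summed per library, or per library and marker class, and fitted with edgeR 4.0.16 (R 4.3.3; TMM, filterByExpr, quasi-likelihood test, Benjamini-Hochberg adjustment over all genes tested, threshold 0.05). Over all nuclei, TMM factors were 1.33 and 1.32 for wounded and 0.782 and 0.731 for unwounded libraries. This puts fitted fold changes over all nuclei below ratios of CPM. In keratinocyte-marker nuclei the factors were 0.888 and 0.919 for wounded and 1.13 and 1.08 for unwounded libraries. Fitted fold changes there lie above ratios of CPM. The comparison of marker classes has the mouse as a block, since both classes come from the same mice. The SE is the log2 fold change over the square root of F.

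On simulated data the fits recovered 99%, 83% and 88% of 200 genes changed by a log2 fold of 2, over all nuclei (20930 genes), keratinocyte-marker nuclei (2543) and suprabasal- against basal-marker nuclei (1206). False calls were 4.35%, 2.35% and 3.30% of calls. The changed genes were drawn at or above the median level, and all genes shared a common dispersion. The rates therefore do not hold for members of few counts or of wide spread between replicates, such as Lor. Gene lengths are start to end in GENCODE vM21 of GRCm38, matched for 32235 of 32285 genes. Intervals are exact 95% Poisson intervals for counts and exact binomial ones for ratios of counts, and cover counting error only. The labels name separate mice but no pairing of wounded with unwounded numbers, and same-numbered libraries did not deviate together (correlation 0.0434 over all nuclei and 0.00918 in keratinocyte-marker nuclei).

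The members, gene lists, marker lists and tests were chosen with earlier results of these data known. Named genes are all members, up to 4 genes of smallest p from each of the other lists in each comparison, and the 5 genes most like the members. Krt5, Krt14, Krt15, Skint5 and the nuclei with many counts were chosen after their values were seen. Alternatives tried were RLE factors, DESeq2 1.42.0, no low-count filter, a replicate block, each replicate left out, at least 400 genes per nucleus, no doublet removal, all deposited barcodes, nuclei with a Malat1 UMI, length-expected counts subtracted, at least 3 markers, and other gates.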

Additional observations from a re-analysis of the deposited data

How the results depend on the processing

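Over all nuclei, the 7 falls among the members held under RLE factors, DESeq2, all deposited barcodes and nuclei with a Malat1 UMI. Leaving out each replicate in turn gave 6 to 8 members lower and 0 to 1 higher, the 6 being without unwounded replicate 2, where Lor was not tested. Such fits hold 1 library in a group, so their calls do not measure the spread between mice of that group. With no low-count filter 1 member, Krt2, was called higher. With length-expected counts subtracted 4 members were lower, 5398 genes were higher, and the Lgals7 log2 fold change was 0.25 (adjusted p = 0.788). In nuclei with a Malat1 UMI 5846 genes were higher. Over its alternatives Lgals7 passed as lower with no low-count filter (-1.34), with at least 400 genes per nucleus (-1.88) and with no doublet removal (-1.31). The causes of these shifts were not tested.

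In keratinocyte-marker nuclei the count of calls depended on the setting. The main counts were 940 genes higher and 577 lower. DESeq2 called 1734 higher, and no low-count filter gave 3436 higher, 1249 lower and 5 members lower. Leaving out each replicate gave 581 to 1224 genes higher, 247 to 597 lower and 2 to 5 members lower. At least 400 genes per nucleus gave 369 lower. Nuclei with a Malat1 UMI gave 408 higher and 289 lower, subtraction of length-expected counts 339 and 375, at least 3 markers 247 and 181, and suprabasal-marker nuclei alone 277 and 144. Basal-marker nuclei alone gave 418 and 265 with 0 members lower, since Lgals7 was the only member tested. Nuclei with a Krt5 or Krt14 UMI gave 593 genes higher and 0 members lower. The main sign of Lgals7, -0.09, turned to 0.023 with RLE factors, 0.37 in nuclei with a Malat1 UMI and 0.75 after subtraction. It was 1.01 with at least 3 markers, 1.00 in basal-marker nuclei and 1.15 in nuclei with a Krt5 or Krt14 UMI. None of these values passed the threshold. Over the replicates left out, in fits that hold 1 library in a group, it ran from -1.69 to 0.88.

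Between suprabasal- and basal-marker nuclei, DESeq2 called 29 genes higher and 14 lower, and no low-count filter gave 100 higher. Krt10 and Krt77 passed under each setting that gives a test. Leaving out a mouse leaves values with no test, from 2.97 to 3.04 for Krt10, 3.07 to 4.20 for Krt77, 1.83 to 3.17 for Sbsn and 0.49 to 1.33 for Lgals7.

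The replicate number as a block gave 9721 genes higher and 7858 lower over all nuclei and 8 members lower, since Lgals7 then passed (-1.37, adjusted p = 4.85e-11), and 933 higher and 505 lower with 3 members lower in keratinocyte-marker nuclei. Without the replicate block the marker classes gave 169 genes higher and 136 lower with 3 members higher.

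Depth limits the wounded side: most members had 1 to 21 counts in a wounded library. Krt2 was under the floor in every library. Lor in both wounded libraries, and Krt10 and Krt1 in wounded replicate 1, were at or under the floor of 3 counts. Flg was above it, with 5 to 16 counts in a library.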

Other observations

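Other members also had single nuclei with at least 5 counts. In unwounded replicate 1 there were 2 for Krt1, together 11 counts or 9.02% of that library's Krt1, 1 for Krt10 and 1 for Sbsn, and in unwounded replicate 2 there was 1 for Krt10. In unwounded replicate 2, 3 nuclei had at least 5 Sbsn counts, together 21 counts. They held 13 counts of Flg2, in 2 of the 3 nuclei, so that at least 1 is also among the nuclei with at least 5 Flg2 counts, and 6 counts of Lgals7 and 4 of Krtdap, both in all 3. They were picked by their Sbsn counts, and no test was made.

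Barcodes below the filters held more Lgals7 than Krt10 in wounded replicate 2. Over all deposited barcodes Lgals7 had 34 and 379 counts in wounded replicates 1 and 2 (20.5 and 102.5 CPM), against 265 and 637 counts in unwounded replicates 1 and 2 (30.2 and 90.7 CPM). Krt10 had 1 and 11 counts in wounded libraries (0.603 and 2.97 CPM), against 234 and 335 counts in unwounded libraries (26.7 and 47.7 CPM). Krt14 had 57 and 255 counts in wounded libraries and 250 and 305 in unwounded libraries.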
